A study of Mus musculus with 4 samples.

Results

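The IκB family was examined in mouse primary myotubes treated with recombinant EDA-A2, the ectodysplasin isoform that binds the receptor EDA2R. Its members were taken by gene symbol, not by their values, and number 6 of the 53647 genes in the count tables: the classical cytoplasmic inhibitors Nfkbia (IκBα), Nfkbib (IκBβ) and Nfkbie (IκBε), and the nuclear IκBs Nfkbid (IκBNS), Nfkbiz (IκBζ) and Bcl3. All cells were wild type (WT), grown from myoblasts of the limb muscles of pups aged 2 to 3 days and differentiated in low horse serum. The control group was 2 libraries of myotubes labelled only as control (whether they received a vehicle is not stated in the labels) and the EDA-A2 group was 2 libraries of myotubes given 250 ng/mL EDA-A2 for 24 h, with harvest at 72 h of differentiation. The labels do not say whether the 2 libraries of a group came from separate cultures, so the p-values measure only the spread between these libraries, which may be technical.

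IκB proteins are the brakes of the NFκB transcription factors. The classical members hold NFκB dimers in the cytoplasm through their ankyrin repeats until the IκB kinase marks them for ubiquitination and destruction by the proteasome, and several IκB genes are themselves NFκB targets, which closes a negative feedback loop. Nuclear IκBs are instead found on chromatin with p50 or p52 dimers, where they can raise or lower the transcription of chosen genes. In skeletal muscle NFκB activity is known for its part in wasting, and loss of Bcl3 is known to protect muscle from disuse atrophy in mice.

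Promoter sequences are shown first, because κB sites, the DNA elements bound by NFκB, are the letters through which an IκB gene can be an NFκB target. Windows from 250 bases before to 50 bases after each annotated start were available from RefSeq (build GRCm38.p6, which differs from the GRCm39 build of the counts) for 5 of the 6 members, all but Nfkbiz. The 10-base κB consensus was searched on both strands. The 250 bases upstream of the start are given 5′ to 3′ on the strand of the gene, in lower case, with matches to the consensus in capitals. The first pair belongs to the members with the clearest change and the second pair to members with a small or no such change. These stretches were thus picked with the changes known. The windows of Nfkbid, among them a window with 2 upstream matches, are not printed. A link between these letters and the changes was not tested.
Nfkbia, chr12:55492648-55492897, minus strand: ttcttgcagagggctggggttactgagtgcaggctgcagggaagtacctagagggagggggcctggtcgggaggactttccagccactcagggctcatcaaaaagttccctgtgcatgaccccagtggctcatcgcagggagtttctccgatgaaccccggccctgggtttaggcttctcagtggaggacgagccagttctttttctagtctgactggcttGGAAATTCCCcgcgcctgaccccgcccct
Nfkbie, chr17:45555450-45555699, plus strand: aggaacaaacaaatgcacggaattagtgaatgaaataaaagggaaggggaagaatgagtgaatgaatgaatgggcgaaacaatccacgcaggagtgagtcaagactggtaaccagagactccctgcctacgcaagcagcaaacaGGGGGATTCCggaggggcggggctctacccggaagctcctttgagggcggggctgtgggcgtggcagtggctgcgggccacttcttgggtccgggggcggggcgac
Nfkbib, chr7:28766645-28766894, minus strand: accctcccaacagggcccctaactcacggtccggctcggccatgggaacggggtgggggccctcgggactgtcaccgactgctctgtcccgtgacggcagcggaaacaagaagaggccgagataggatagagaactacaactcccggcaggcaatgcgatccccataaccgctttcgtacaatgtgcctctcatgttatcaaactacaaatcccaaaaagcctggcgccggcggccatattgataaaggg
Bcl3, chr7:19822756-19823005, minus strand: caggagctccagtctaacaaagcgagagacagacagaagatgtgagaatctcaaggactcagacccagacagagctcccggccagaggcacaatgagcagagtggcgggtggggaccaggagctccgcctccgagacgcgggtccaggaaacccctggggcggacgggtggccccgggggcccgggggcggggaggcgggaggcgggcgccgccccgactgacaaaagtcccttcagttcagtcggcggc

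Nfkbia held 1 match, from 29 to 20 bases before its start, and Nfkbie held 1, from 106 to 97 bases before it. Bcl3 had 1 match just after its start, from base 3 to base 12, in the part that is not printed. No match was present in the Nfkbib window. Of the 3 windows of Nfkbid, 1 held 2 matches upstream and the others held none. Of all 32851 RefSeq promoter windows, 4.51% held the consensus, so these letters are uncommon in windows of this length. A looser form on either strand, GGG then any 5 bases then CC, of which every consensus match is also an example, was present in 50.8% of all windows and separates little. Matches are letters in a window and were not tested as binding sites.

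**Figure D1:**
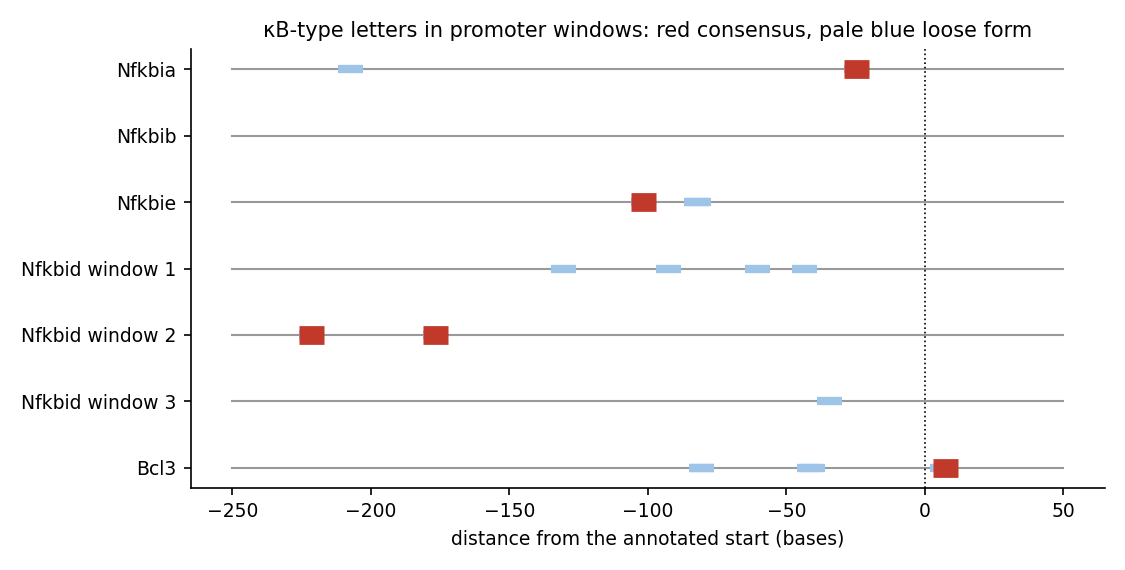
κB-type letters in the promoter windows of 5 IκB genes, with the distance from the annotated start in bases on the x axis and a line for each window. Red blocks are matches to the κB consensus, pale blue blocks the looser form: Nfkbia and Nfkbie each have 1 red block upstream of the start, Bcl3 has 1 just after it and Nfkbib has none.

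Counts on genes totalled 29444155 to 29746863 across the 4 libraries, and normalized counts below are counts scaled by edgeR's TMM factors to the mean library size. The 15173 genes with enough counts were tested with edgeR (quasi-likelihood test, Benjamini-Hochberg adjustment over all of them), and genes with an adjusted p under 0.05 are called. Of the 6 members 5 had enough counts to be tested. EDA-A2 raised 2 of these, Nfkbia and Nfkbie, and lowered none, while 2.45% of all genes tested were called higher and 2.13% lower (4.57% in either direction). At an unadjusted p under 0.05 by edgeR there were 4 members higher and 0 lower, beside 2372 of all 15173 genes tested in either direction. DESeq2 called 2 members higher and 0 lower, beside 294 higher and 271 lower over all genes tested. At an unadjusted p under 0.05 by DESeq2 there were only 2 members, beside 1570 of all genes tested in either direction. The median log2 fold change of the 5 was 0.30, against -0.00208 over all genes tested.

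Among the classical inhibitors, Nfkbie changed most. Nfkbie (ENSMUSG00000023947) lies on chromosome 17 from 45866585 to 45874661 of GRCm39, plus strand, and encodes IκBε, an inhibitor known for holding dimers of RelA and c-Rel and for a feedback that is slower than that of IκBα. Control myotubes had 137 and 163.4 normalized counts of Nfkbie and treated myotubes 1283 and 1388. Both treated libraries therefore lay far above both controls, and the fold change was 8.88 (95% interval 7.53 to 10.5, adjusted p = 6.24e-10 by edgeR's quasi-likelihood test). By log2 fold change it ranked 2 among the 12345 genes tested whose mean normalized count was 50 or more, and by p-value it ranked 1 of all genes tested.

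Nfkbia encodes IκBα, the prototype inhibitor, whose quick resynthesis ends most NFκB responses. Nfkbia (ENSMUSG00000021025) is on chromosome 12 from 55535332 to 55539432, minus strand. Its normalized counts were 1371 and 1271 in controls and 3550 and 3558 after EDA-A2. The EDA-A2 libraries were nearly equal and well above the controls, with a fold change of 2.69 (95% interval 2.42 to 3.00, adjusted p = 1.51e-08 by edgeR's quasi-likelihood test). Its rank by log2 fold change was 26 among the same 12345 genes.

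The calls of Nfkbia and Nfkbie rest on both control libraries. Without control replicate 1 the log2 fold changes were 1.49 and 3.03 with an adjusted p of 0.115 for each by edgeR, and without control replicate 2 they were 1.38 and 3.28 with adjusted p-values of 0.0896 and 0.0842. With either control library left out edgeR called 0 genes in all, with 2179 and 2449 at an unadjusted p under 0.05.

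Nfkbib encodes IκBβ, an inhibitor known for weaker or absent induction by NFκB itself. Nfkbib (ENSMUSG00000030595, chromosome 7 from 28457486 to 28466937, minus strand) had normalized counts of 383.3 and 387.2 in controls, against 427.3 and 521.9 after treatment. The groups did not overlap, but the EDA-A2 libraries were far apart from each other. Its log2 fold change of 0.30 (standard error 0.12) had an unadjusted p of 0.0219 and an adjusted p of 0.204 by edgeR and was not called. The value was 0.15 without EDA-A2 replicate 2 and 0.44 without EDA-A2 replicate 1.

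No nuclear IκB was called. Nfkbiz (ENSMUSG00000035356, chromosome 16 from 55631738 to 55659262, minus strand) encodes IκBζ, which in other cells is a quickly induced cofactor for a second wave of inflammatory genes. Its normalized counts were 1682 and 1578 in controls and 1602 and 1479 after EDA-A2. The groups overlapped, and the log2 fold change of -0.08 had a 95% interval from -0.25 to 0.08, that is a fold between 0.843 and 1.06 (adjusted p = 0.71 by edgeR). At 24 h a rise of Nfkbiz as large as that of Nfkbia or Nfkbie lies outside this interval.

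Bcl3 encodes a nuclear partner of p50 and p52 homodimers. Bcl3 (ENSMUSG00000053175, chromosome 7 from 19541553 to 19557570, minus strand) had normalized counts of 458.5 and 478 in controls and 555.7 and 550.4 after EDA-A2. Both treated libraries were above both controls, by a small step. The log2 fold change was 0.24 (standard error 0.10, 95% interval 0.03 to 0.45), with an unadjusted p of 0.0278 and an adjusted p of 0.234 by edgeR, and it was not called.

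Nfkbid (ENSMUSG00000036931, chromosome 7 from 30121150 to 30128171, plus strand) encodes IκBNS, known mainly from lymphocytes and macrophages. Its raw counts were 0 and 1 in controls and again 0 and 1 after treatment, too few to be tested. The upper limit that 0 counts allow, taken as 3 counts, is 0.0422 to 0.0444 RPKM (read count per kilobase of exon, scaled to library size) for this gene, for counting error only. At this depth the observed level of Nfkbid was under that value in every library. For the libraries with 1 count the upper limit is higher than the one given for 0 counts.

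**Figure D2:**
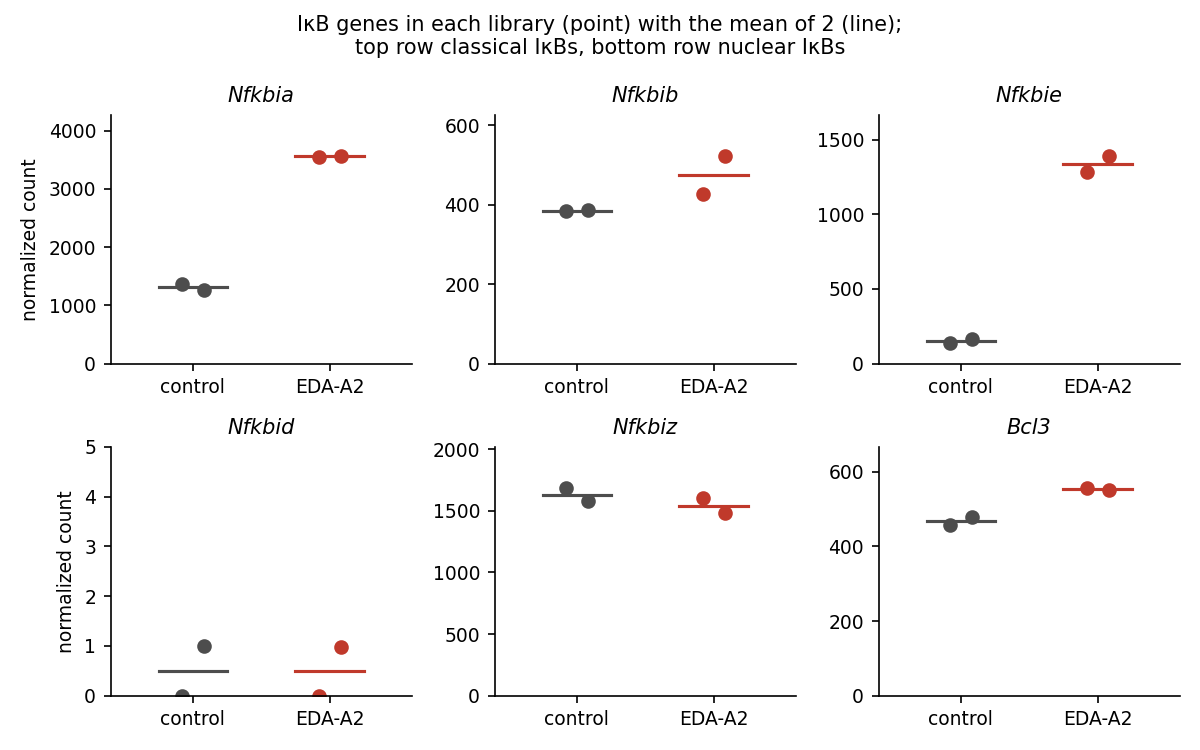
Normalized count (y axis, from 0) of each IκB gene in control and EDA-A2 libraries, with a point for each library and a line at the mean of 2. Points of Nfkbia and Nfkbie separate widely, those of Nfkbib and Bcl3 separate by a small step, those of Nfkbiz overlap and those of Nfkbid stay at 0 or near 1.

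**Figure D3:**
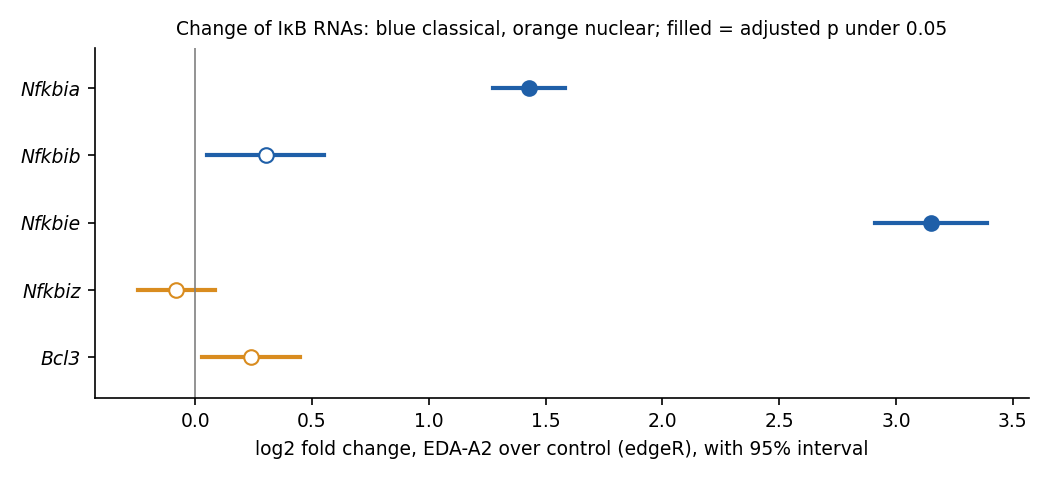
Log2 fold change of the 5 tested members (EDA-A2 over control, from edgeR) with 95% intervals as bars, classical IκBs in blue and nuclear IκBs in orange, filled where the adjusted p is under 0.05. The intervals of Nfkbie (2.91 to 3.39) and Nfkbia (1.27 to 1.58) overlap neither each other nor those of the other members.

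The classical and the nuclear class were then set side by side. The mean log2 fold change was 1.63 over the 3 classical members and 0.08 over the 2 nuclear members tested, a difference of 1.55. Within each library, the mean log2 normalized count of the classical members minus that of the nuclear members was -1.08 and -1.01 in controls, against 0.40 and 0.60 after EDA-A2. The gap between the groups was larger than the spread within either (pooled SD of the library values 0.105), while the zero of this value depends on gene length and carries no meaning. No p is given for a score over chosen members, and with 2 libraries against 2 the smallest two-sided exact permutation p is 0.333. The classes were also not uniform, since Nfkbib lay near Bcl3 and not near the other classical members.

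Levels were compared between genes per kilobase of annotated exon, as RPKM on the TMM-scaled library sizes. In control myotubes the order was Nfkbia (23.0 ± 1.24 RPKM, SD, n = 2), Nfkbiz (9.80 ± 0.44), Nfkbib (5.52 ± 0.0399), Bcl3 (3.02 ± 0.0888) and Nfkbie (1.21 ± 0.15), with Nfkbid last. After EDA-A2 it was Nfkbia (62.0 ± 0.0947), Nfkbie (10.8 ± 0.597), Nfkbiz (9.26 ± 0.521), Nfkbib (6.80 ± 0.957) and Bcl3 (3.56 ± 0.0245). Nfkbie thus moved from the last place among the detected members to the second. No neighbours in either order overlapped between their libraries, and the closest were Nfkbie, at 10.3 and 11.2 RPKM, and Nfkbiz, at 9.63 and 8.90 RPKM, after EDA-A2. Without the length correction the order of these 2 and of other members changes, so the levels depend on the exon length assumed.

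As shares of the summed IκB RNA, the classical members made up 70.0% and 69.7% in controls and 85.6% and 86.6% after EDA-A2. Nfkbia alone took 54.9% and 53.3%, then 67.6% and 66.6%. Nfkbie went from 2.53% and 3.16% to 11.3% and 12.0%. The share of Nfkbiz was 23.2% and 22.8% in controls and 10.5% and 9.55% after treatment, although its own level overlapped between the groups. Summed RPKM of the classical members was 29.8 ± 1.05 and 79.5 ± 1.65 (SD, n = 2), a ratio of 2.67, while that of the nuclear members was 12.8 ± 0.34 and 12.8 ± 0.535.

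Within the classical pool Nfkbia held nearly the same share in both groups, 77.4% ± 1.44 and 77.9% ± 1.5 (SD, n = 2). Nfkbie held 4.08% ± 0.648 and then 13.5% ± 0.47, and Nfkbib 18.5% ± 0.79 and then 8.53% ± 1.03. The ratio of Nfkbie to Nfkbia in RPKM was 0.0462 and 0.0594 in controls and 0.167 and 0.18 after EDA-A2. Against the 5 NFκB subunit genes, a ratio chosen after the data were seen, the classical IκB RNAs summed to 1.33 and 1.28 times the subunit RPKM in controls and to 1.98 and 1.94 times after treatment. The subunit sum itself was 22.8 ± 0.15 RPKM in controls and 40.6 ± 1.54 after EDA-A2.

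**Figure D4:**
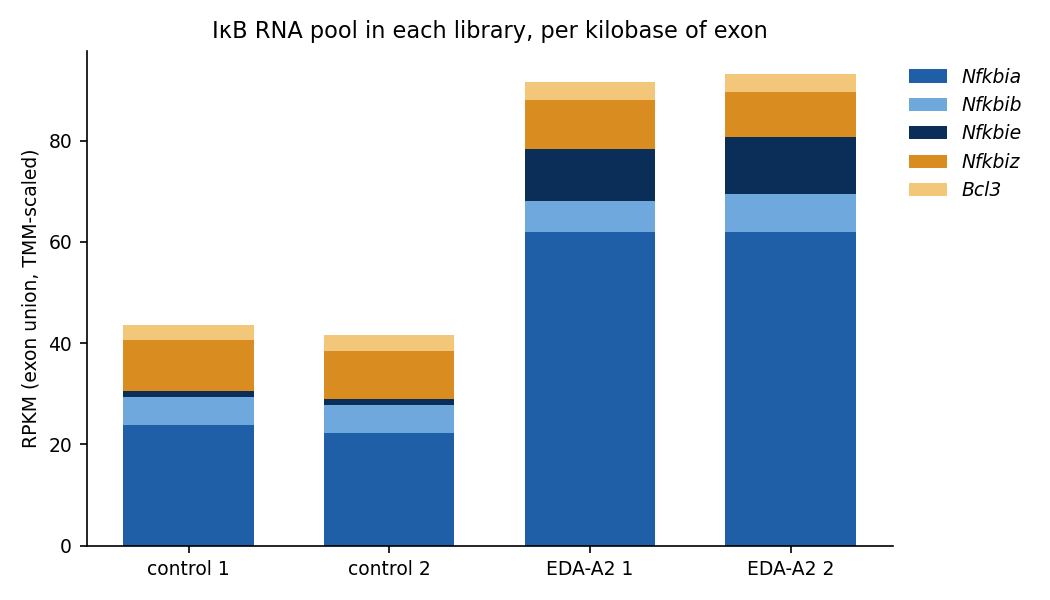
Stacked RPKM of the IκB genes (y axis) in each of the 4 libraries (x axis), classical members in blues and nuclear members in oranges. The stack is 43.6 and 41.6 RPKM high in the control libraries and 91.6 and 93.2 after EDA-A2, and the orange part has nearly the same height in all 4.

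Other genes of the pathway were followed as lists by role. Beside their counts, 49.5% of all genes tested had a log2 fold change above 0. By edgeR 2.45% of all genes tested were called higher and 2.13% lower. Of the 5 NFκB subunits 2 rose and none fell, with all 5 above 0 and a median log2 fold change of 0.30. Nfkb2, whose product p100 ends in ankyrin repeats that act as an IκB until it is processed to p52, had 1008 and 1005 normalized counts in controls and 3660 and 3808 after EDA-A2. Relb, the partner that p100 retains, had 545.1 and 520.3, then 966.4 and 1144 normalized counts. Both were called by edgeR, with log2 fold changes of 1.89 and 0.99. Rela, the main cargo of IκBα, had a log2 fold change of 0.30 (standard error 0.08) that missed the threshold with an adjusted p of 0.057 by edgeR. It was called under scaling to total counts (adjusted p = 0.0304 by edgeR) and with replicate number as a block (0.0241 by edgeR). Under the other scalings, filters and tests Rela was not called, with an adjusted p of 0.151 by DESeq2 and 0.256 by edgeR with no filter.

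Of 10 genes for kinases and activators that act on IκBs, 1 rose, 0 fell and 9 were above 0, with a median of 0.11. The gene that rose was Map3k14, which encodes NIK, the kinase that triggers p100 processing. Its normalized counts were 437.9 and 386.2 in controls and 893.9 and 890.4 after EDA-A2 (log2 fold change 1.11, adjusted p = 7.39e-06 by edgeR). Map3k7 (TAK1, which activates the IκB kinase) and Tab3, its adaptor, had log2 fold changes of 0.22 and 0.26 and adjusted p-values of 0.105 and 0.296 by edgeR. Map3k7 was called under scaling to total counts, with an adjusted p of 0.0439 by edgeR, and with replicate number as a block (0.046 by edgeR). Under the other scalings, filters and tests it was not called, with an adjusted p of 0.183 by DESeq2 and 0.357 by edgeR with no filter.

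No gene for the ubiquitination and turnover of IκBs was called among 10 tested by edgeR, and DESeq2 called 0. Their median log2 fold change was -0.02, and at an unadjusted p under 0.05 there was 1 that was lower, Nedd8 (log2 fold change -0.18, adjusted p = 0.262 by edgeR), the modifier that switches on the ligase holding the IκB receptor βTrCP. Uba3, part of the enzyme that activates Nedd8, and Rbx1, the RING subunit of the ligase, had 0.12 and -0.10. The 5 genes for IκB partners or IκB-like proteins also gave 0 calls by edgeR and by DESeq2, with 0 at an unadjusted p under 0.05. Among them Nkiras2, a Ras-like protein that binds IκBβ, had -0.12, G3bp2, which binds IκBα, had 0.07 and Nfkbil1 had 0.08 on the log2 scale.

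RNA-binding proteins of message decay, some of them known to destroy the messages of nuclear IκBs, formed a list of 5, of which 1 rose and none fell. Zc3h12a, which encodes the endonuclease Regnase-1 that cuts Nfkbiz RNA, had 590.4 and 577.8 normalized counts in controls and 749.8 and 725.3 after EDA-A2. The groups were well apart for a log2 fold change of 0.34 (standard error 0.09), but the adjusted p of 0.0485 by edgeR lay just under the threshold. It was 0.141 with DESeq2, 0.22 with no filter on low counts and 0.0504 with upper quartile factors, and the call was also lost without any 1 of the 4 libraries (adjusted p 0.23 to 0.399 by edgeR). Rc3h2 and Rc3h1, the Roquin genes, had 0.13 and 0.09 and were not called.

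Genes described in other cells as depending on IκBζ or Bcl3 were 10 in number. Of these, Lcn2, Csf2, Csf3, Il12b and Ccl20 had at most 3 counts in each library and were not tested. Among the 5 tested, all above 0 with a median of 0.19, 1 was called higher, again Zc3h12a, which is on both lists. Il6 and Cdkn1a were above 0 only by 0.03 and 0.003 on the log2 scale, and their libraries overlapped between the groups. The chemokine gene Ccl2 had 34.0 and 26.2 normalized counts in controls and 35.3 and 40.3 after EDA-A2, and the cyclin gene Ccnd1, a target described for Bcl3, had a log2 fold change of 0.19 (adjusted p = 0.216 by edgeR).

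**Figure D5:**
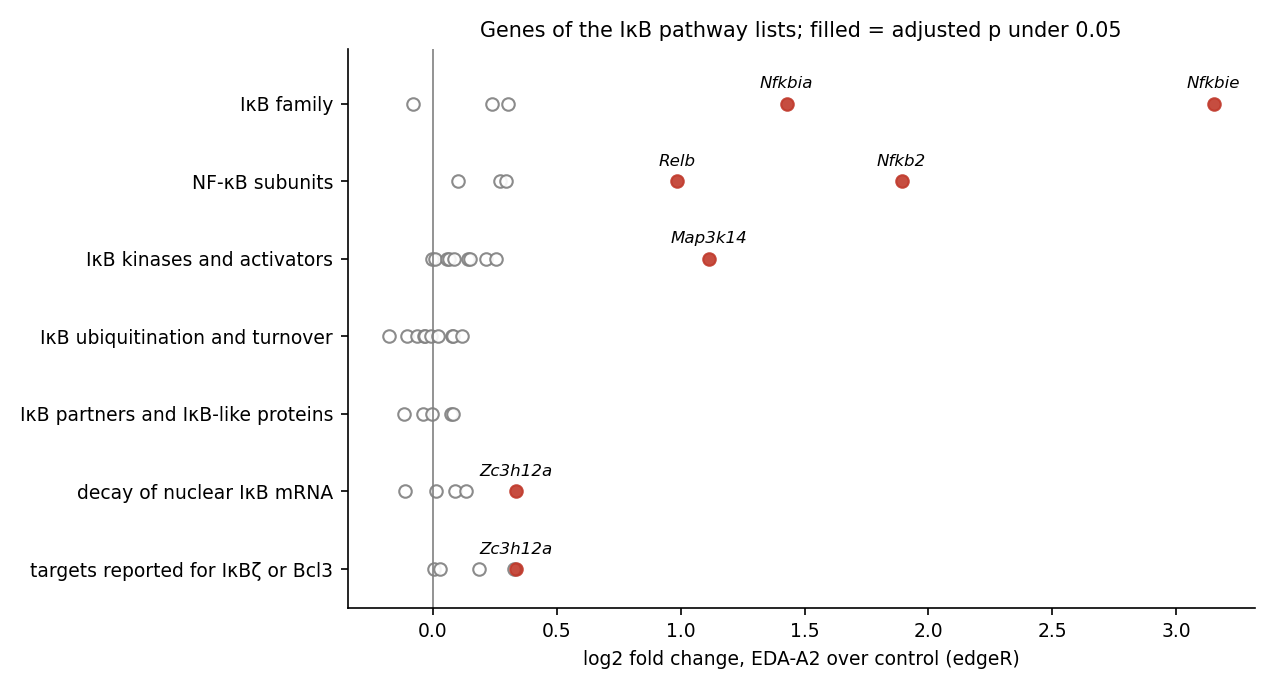
Log2 fold change from edgeR (x axis) of each tested gene of the IκB family and of 6 lists from its pathway (rows), filled red where the adjusted p is under 0.05. Filled points are Nfkbia, Nfkbie, Nfkb2, Relb, Map3k14 and Zc3h12a, which stands in 2 rows, and the rows for turnover and partners have none.

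Among genes with a mean of 50 or more normalized counts, those most like the called members across the 4 libraries, by root mean square difference of log2 normalized counts after subtracting the control mean, were Nfe2l3 (0.092) and Slc2a6 (0.102) for Nfkbia. Nfe2l3, a transcription factor gene, had 97.9 and 103.9, then 261.7 and 252.6 normalized counts. Slc2a6, a sugar transporter gene, had 389.5 and 316.6, then 1011 and 1031. For Nfkbie the nearest were Or2y7 (0.362), annotated as a transcribed pseudogene, and Dnase1l3 (0.528), which encodes a secreted DNase. Or2y7 had 90.7 and 112.9, then 710.6 and 593.6 normalized counts, and Dnase1l3 29.9 and 34.3, then 152.9 and 195.6. Within that limit no gene came as near to Nfkbie as the pair did to Nfkbia. The measure follows the size of the change, in which Nfkbie ranked 2 and Nfkbia 26 of the 12345 genes. Few genes could therefore lie near Nfkbie, and its larger distances do not mark a distinct profile. Genes below the limit of 50 were not searched, and the likeness rests on 4 libraries of 2 conditions.

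Exons of other genes overlap some members. Gm36634, a long noncoding RNA on the opposite strand, shares 141 bases of exon with Nfkbia and had 28.9 and 26.2 normalized counts in controls and 89.2 and 53.1 after EDA-A2 (log2 fold change 1.37, adjusted p = 0.0182 by edgeR). That call was lost without EDA-A2 replicate 1 (adjusted p = 0.368 by edgeR) and with no filter on low counts (0.222). The strand setting of the counting is not given in the sources used here. Whether reads of this pair were separated by strand where they overlap is therefore not known. Even so its counts were few beside the 3550 and 3558 of Nfkbia. Sirt2, which shares 42 bases of exon with Nfkbib on the opposite strand, had 2302 and 2554, then 2444 and 2549. Gm16175, opposite Bcl3, had 0 counts in all 4 libraries, and Ccer2, opposite Nfkbib, had at most 1. The long noncoding RNA Gm71901, also opposite Nfkbib, shares 338 bases of exon with it and was not analysed here, as it matched no row of the count tables.

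Myotube markers were abundant, and some of them moved with the treatment. All 8 listed were tested, with none above 0, and 3 were called lower, Myh3, Acta1 and Actc1. At an unadjusted p under 0.05 by edgeR 5 were lower, and DESeq2 called 4 lower. Ckm, Ttn and Myog, not called by edgeR, had log2 fold changes of -0.36, -0.25 and -0.18, with both treated libraries below both controls. Des and Mymk had log2 fold changes of -0.02 and -0.01, and their libraries overlapped between the groups. The summed level of the 8 was 21100 to 22400 CPM (counts scaled to library size) in controls and 15800 to 16200 after EDA-A2. Of 4 myoblast markers none was above 0, 2 were lower at an unadjusted p under 0.05 and 1 was called lower by edgeR and by DESeq2, Cdh15 (log2 fold change -0.47, adjusted p = 0.00318 by edgeR). Their sum was 257 to 300 CPM in controls and 229 to 240 after EDA-A2. In the same order, markers of dividing cells were at 655 to 779 and 716 to 727, and fibroblast markers at 1680 to 1740 and 1600 to 1620 CPM. The fibroblast sum hides moves in both directions, since Dcn had a log2 fold change of 0.48 and Col1a1 of -0.46. Their unadjusted p-values were 0.0355 and 0.0251 by edgeR, and neither was called. In bulk libraries a change in RNA per cell and a change in the number of cells of a type cannot be told apart. The part of these shifts in the IκB values was not tested.

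Markers of immune cells, in which IκB genes are also strongly used, were low. Of 8 macrophage markers 4 were tested, none was called by edgeR or DESeq2 (2 were higher at an unadjusted p under 0.05) and all 4 were above 0, with a summed level of 9.26 to 10.4 CPM in controls and 11.2 to 14.8 after EDA-A2. Their defining members Ptprc and Adgre1 had at most 2 counts and at most 1 count in any library. Of the 4 tested, Itgam had raw counts of 18 and 18 in controls and 39 and 32 after EDA-A2. In the same order, Cd14 had 11 and 17, then 30 and 26, and Cd68 had 54 and 63, then 81 and 69. Mrc1 had 211 and 168, then 288 and 203. The log2 fold changes of Itgam and Cd14 were 0.92 and 0.94, with adjusted p-values of 0.168 and 0.229 by edgeR. The lymphocyte markers Cd2 and Ms4a1 and the dendritic cell markers Itgax, Flt3 and H2-Ab1 had 0 counts in every library. Other members of these lists were detected. The lymphocyte marker Cd3g had raw counts of 7 and 12 in controls and 1 and 5 after EDA-A2, and the dendritic cell marker Zbtb46 had 266 and 354, then 389 and 416. Zbtb46 had a log2 fold change of 0.32 (adjusted p = 0.233 by edgeR, unadjusted p = 0.0277), and the dendritic list summed to 9.26 to 12.1 CPM in controls and 12.9 to 13.8 after EDA-A2. The part of these lists in the IκB values was not tested. Endothelial markers summed to 1.08 to 1.23 CPM in controls and 0.996 to 1.22 after EDA-A2.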

How the data were processed

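Polyadenylated RNA of 4 libraries, 2 per condition, was sequenced from TruSeq stranded libraries. The authors trimmed the reads with Trim Galore 0.6.5, mapped them to GRCm39 with STAR 2.7.3a and counted them with HTSeq 0.11.1. The deposited values are raw counts for each Ensembl gene and library, not normalized. The annotation release is not given in the sources used here. Symbols and exon lengths came from GENCODE, which matched 52610 of 53647 genes.

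Counts outside genes (6.68 to 7.40% of read pairs), ambiguous between genes (0.946 to 0.986%) or not uniquely mapped (4.56 to 4.76%) were left out. Counts on genes totalled 29444155 to 29746863 per library. Intervals and floors cover counting error or the fitted spread only. Libraries were not duplicates, since counts differed by 4.73 to 9.94 in chi-square per gene within a condition.

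Counts were tested in R 4.3.3 with edgeR 4.0.16 (TMM, filterByExpr with a minimum count of 10 and total of 15, glmQLFit, glmQLFTest). Condition was the only term. RPKM used the union of annotated exons. Per-library log2 values used a pseudocount of 0.5. On simulated data edgeR recovered 177 of 200 genes changed by 1 on the log2 scale and called 1 unchanged gene among 15129 tested. DESeq2 1.42.0 recovered 158. The simulation gave all genes and both groups the same spread (dispersion 0.00384). The real pairs differed in spread, with a chi-square per gene of 9.94 between controls and 4.73 between EDA-A2 libraries. The simulation therefore does not give the rate of false calls in these data.

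Members, lists and tests were chosen with earlier results of these data known. Named genes were the members, up to 3 genes per list with the smallest p, the 2 most similar genes (mean normalized count of at least 50) per called member, and genes overlapping a member. Further genes of the target list and cell type markers were named beside these. Alternatives were other scalings, filters and tests, a replicate block, and leaving out each library.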

Additional observations from a re-analysis of the deposited data

How the results depend on the processing

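The 5 tested members kept their direction under every scaling, filter and test tried and without each library. Beyond leave-one-out fits they also kept their side of the threshold, with log2 fold changes of 3.15 to 3.21 for Nfkbie, 1.42 to 1.48 for Nfkbia, 0.30 to 0.36 for Nfkbib, 0.24 to 0.30 for Bcl3 and -0.09 to -0.03 for Nfkbiz. Where 1 library is left out, the lone library of its group is assumed to vary like the other group. The ranges were then 3.03 to 3.28 for Nfkbie, 1.38 to 1.49 for Nfkbia and 1.45 to 1.64 for the difference between the classes. Members called higher ranged from 0 to 2, NFκB subunits from 0 to 2, kinases and activators from 0 to 1, and both the decay and the target list from 0 to 0. Over all genes the range was 0 to 238 higher and 0 to 170 lower. The counts of 0 over all genes came without control replicate 1, with 2179 genes at an unadjusted p under 0.05 by edgeR, and without control replicate 2, with 2449, where the EDA-A2 pair alone carried the spread estimate. Sirt2, which overlaps Nfkbib, ranged from -0.031 (a change of sign, without control replicate 1) to 0.118.

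Scaling to total counts, which moved the median of all genes by 0.055, called 485 genes higher and 194 lower instead of 371 and 323, and 2 kinases and activators. With no filter 64 were higher and 22 lower among 25545 genes tested. The decay and target lists had 0 calls there, with DESeq2 and with upper quartile factors, since Zc3h12a was no longer called. The replicate block called 537 genes higher and 529 lower, and 2 kinases and activators (adding Map3k7, adjusted p = 0.046 by edgeR), as well as Rela (0.0241), and left the calls of the members as they were. Same-numbered libraries shared little (correlation of deviations 0.057 across genes). The labels give only a replicate number, and this value cannot settle whether same-numbered libraries shared a culture or batch.

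Shares of the IκB RNA pool depended on length. With the longest transcript, control and EDA-A2 shares were 51.7% and 64.8% for Nfkbia, 3.09% and 12.8% for Nfkbie, 24.5% and 10.8% for Nfkbiz, 9.20% and 5.06% for Bcl3, and 66.3% and 84.2% for the classical members, with 11.6% for Nfkbib in controls. With no length correction they were 33.4% and 47.7% for Nfkbia, 9.75% and 6.36% for Nfkbib, 3.81% and 17.9% for Nfkbie, 41.2% and 20.7% for Nfkbiz, 11.8% and 7.42% for Bcl3, and 46.9% and 71.9% for the classical members. The ratio of classical IκB to NFκB subunit RNA was 1.09 and 1.80 with the longest transcript and 0.415 and 0.66 with no length correction, alternatives added after the data were seen.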
